A study of Mus musculus with 6 samples.

Results

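Neat1, Malat1, Pvt1, Meg3 and H19 are 5 long noncoding RNA genes that were measured by RNA-Seq in the prostates of irradiated Trp53 R270H mice. They were chosen by gene symbol from the 47719 gene identifiers of the expression files, because Neat1 and Pvt1 have been reported as p53 targets, Malat1 is the nuclear RNA encoded beside Neat1, and Meg3 and H19 are imprinted. All 5 had a mean level of at least 1 FPKM (fragments per kilobase of transcript, scaled to the mapped fragments of the library) over the 6 mice and were among the 13818 genes tested.

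The 6 mice were of the strain B6.129S4-Trp53tm3.1Tyj/J and were about 3 months old. There were 2 Trp53+/+ mice (wildtype, mice 39 and 41), 2 with 1 R270H allele (heterozygous, mice 37 and 40) and 2 with R270H on both alleles (homozygous, mice 47 and 49). R270H is a missense change in the DNA binding domain of p53, and the labels name no Cre driver that would restrict it to the prostate. Every mouse, wildtype included, received 5 Gy of whole body irradiation and its prostate was taken 6 h later, so that each difference below is between irradiated genotypes and no unirradiated level is available for comparison.

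Long noncoding RNAs are transcripts without a known protein product. Neat1 is the scaffold of the paraspeckle, a nuclear body that holds RNA binding proteins, and Malat1 is enriched in nuclear speckles, where splicing factors are stored. Pvt1 lies downstream of the Myc oncogene and its locus has been studied both for p53-dependent transcription and for effects on Myc. Meg3 and H19 are transcribed from the maternal chromosome of imprinted clusters that also hold Dlk1, Rian and Mirg (Meg3) or the growth factor gene Igf2 (H19). Both are high in the embryo, fall in most adult tissues and are known to be expressed in skeletal muscle.

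The 6 libraries were similar in the number of genes detected, with 13452 to 13827 genes at 1 FPKM or more. They were also similar in relative sequencing depth, which spanned 0.79 to 1.07 of that of mouse 39. This depth was inferred from the ratios of FPKM values under 0.1 to those of mouse 39, since no read counts were available. Markers of prostate luminal epithelium were present in all 6 prostates. Their summed level over 10 genes was 36300 FPKM in homozygous mouse 47, above the 32800 FPKM of homozygous mouse 49. Mouse 47 stood apart in Pbsn, an androgen-dependent secretory gene, at 257 FPKM against 7330 to 11500 in the others. Markers of skeletal muscle were also present in all 6 prostates, at a summed level over 12 genes of 1670 and 2440 FPKM in wildtype, 4690 and 4930 in the heterozygotes and 5660 and 5000 in the homozygotes. In bulk tissue a change in the share of a cell type and a change of RNA per cell cannot be told apart.

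The sequences that bear on the results are the 5′ ends of Pvt1, whose level differed between genotypes, the 3′ ends of Neat1 and Malat1, on which capture by poly(A) selection depends, and the miRNAs carried by H19 and Meg3. They were read from the GENCODE transcripts on GRCm38. Pvt1 (ENSMUSG00000097039, chr15:62037986-62378096, plus strand) has 10 annotated transcripts, and its levels below are sums over them. The longest 5′ end belongs to Pvt1-208 (1342 bases, 7 exons). Its first 150 bases, at chr15:62037986-62038135, are shown with capitals from the start of Pvt1-204, a transcript that begins inside the same exon. Pvt1-210 (1052 bases) begins downstream in another first exon, at chr15:62039257-62039406, and shares 4 of its exons with Pvt1-208, which means that gene-level values do not separate the alternative starts.
Pvt1-208: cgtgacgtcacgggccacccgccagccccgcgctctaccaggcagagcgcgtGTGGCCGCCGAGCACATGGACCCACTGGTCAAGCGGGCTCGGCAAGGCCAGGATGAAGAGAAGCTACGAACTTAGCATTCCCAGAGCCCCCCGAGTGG
Pvt1-210: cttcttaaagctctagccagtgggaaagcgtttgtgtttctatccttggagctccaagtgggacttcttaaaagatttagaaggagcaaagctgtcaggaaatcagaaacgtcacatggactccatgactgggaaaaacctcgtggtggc

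Neat1 (ENSMUSG00000092274, chr19:5824708-5845478, minus strand) and Malat1 (ENSMUSG00000092341, chr19:5795690-5802672, minus strand) are neighbours, 22.0 kb apart. Neat1 is made as a short and a long transcript from the same start. The short Neat1-202 (3004 bases) ends with the polyadenylation signal AATAAA, in capitals, at chr19:5842307-5842366. The long Neat1-201 (20771 bases, 1 exon) ends at chr19:5824708-5824767 with a genome-encoded A-rich tract, in capitals. The mature 3′ ends of the long form and of Malat1 are known to be protected by a triple helix in place of a regular poly(A) tail, and these libraries were made by poly(A) selection, so that the measured levels may hold unequal shares of the forms. The annotated end of Malat1-201 (6983 bases, 1 exon) at chr19:5795690-5795749 is shown with its AATAAA in capitals. The mature end of Malat1 is not marked in this stretch.
Neat1-202: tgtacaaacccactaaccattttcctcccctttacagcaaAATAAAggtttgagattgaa
Neat1-201: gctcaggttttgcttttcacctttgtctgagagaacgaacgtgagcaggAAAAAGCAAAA
Malat1-201: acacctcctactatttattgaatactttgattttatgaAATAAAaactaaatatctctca

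H19 (ENSMUSG00000000031, chr7:142575529-142578143, minus strand, 7 transcripts) carries the miR-675 hairpin in an exon of 3 of its transcripts. Meg3 (ENSMUSG00000021268, chr12:109541001-109571726, plus strand, 11 transcripts) carries miR-770 and a copy of miR-1906. Their mature sequences from RefSeq (GRCm38) are given with the seed, bases 2 to 8, in capitals. No seed is shared between the 5 miRNAs. The miRNAs themselves were not measured by these libraries, and the host levels below say nothing of their processing.
mmu-miR-675-5p: uGGUGCGGaaagggcccacagu
mmu-miR-675-3p: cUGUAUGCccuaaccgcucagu
mmu-miR-770-5p: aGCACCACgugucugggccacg
mmu-miR-770-3p: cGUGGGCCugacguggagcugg
mmu-miR-1906: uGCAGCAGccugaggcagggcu

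Of the 5 RNAs, Pvt1 was lower in homozygous than in wildtype prostates. H19 and Meg3 were higher in every mutant mouse than in both wildtype mice, but neither difference passed the test after adjustment. Lying above wildtype without overlap was common, at 21.3% of tested genes in homozygous mice and 19.2% in heterozygous mice. Neat1 and Malat1 had no difference between genotypes that passed the test, with a wide spread between mice. In each genotype Neat1 and Malat1 were by far the most abundant, followed by Meg3. Pvt1 was above H19 in 1 of the 2 wildtype mice and below it in the other, and below H19 in all 4 mutant mice.

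**Figure D1:**
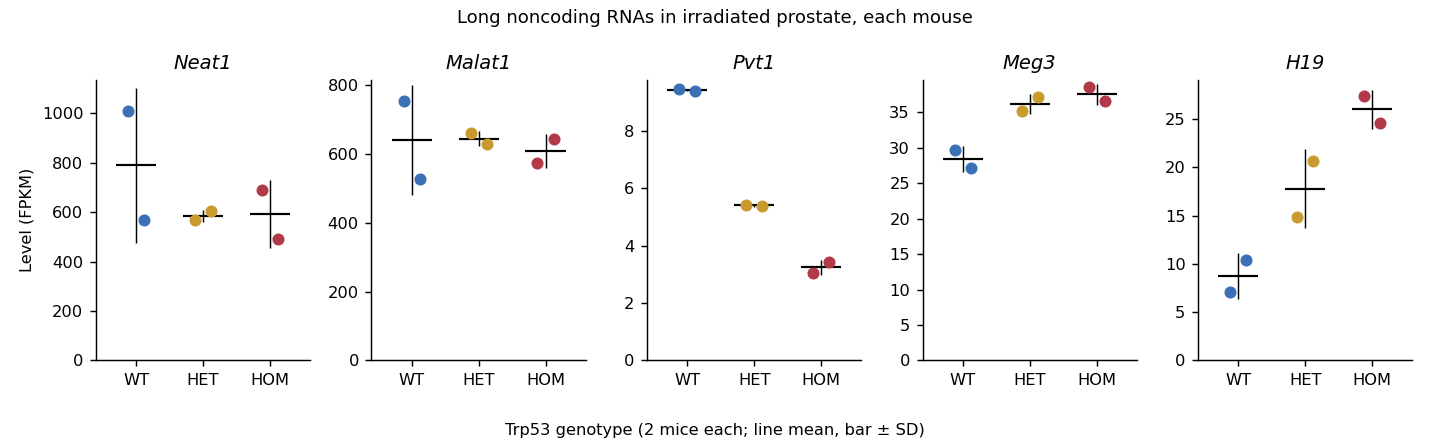
Level of each RNA in FPKM (linear axes from 0) by Trp53 genotype (WT wildtype, HET heterozygous, HOM homozygous), with a point for each mouse, a horizontal line at the mean of 2 mice and a vertical bar of ± 1 SD. Pvt1 falls in steps from 9.42 to 5.40 to 3.24 FPKM and H19 rises from 8.73 to 17.8 to 26.0 FPKM without overlap of genotypes, whereas the points of the genotypes overlap for Neat1 and Malat1.

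Pvt1 was measured at 9.44 and 9.39 FPKM in the wildtype mice, 5.42 and 5.37 FPKM in the heterozygous mice and 3.05 and 3.44 FPKM in the homozygous mice. All 3 genotypes were separated, and the level fell with each R270H allele. The means were 9.42 ± 0.033, 5.40 ± 0.0381 and 3.24 ± 0.273 FPKM (SD, n = 2 each), so the steps between genotypes were many times the spread within them. The homozygous level was 2.85-fold below wildtype. The difference was -1.51 on the log2(FPKM + 0.1) scale (SE 0.13, 95% interval -1.84 to -1.18, limma adjusted p = 0.0291), where 36 of the 13818 tested genes, 0.261%, were called lower and 17, 0.123%, higher. Pvt1 was the only member called in this comparison. An unadjusted limma p under 0.05 was reached in it by 2483 of the 13818 genes. That share is the background for the counts of unadjusted p in the gene lists below.

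The heterozygous level of Pvt1 was 1.73-fold below wildtype, 52.4% of the homozygous change on the log2 scale. This difference was -0.79 (95% interval -1.12 to -0.46, limma adjusted p = 0.222) and it did not pass the test. No gene of the 13818 was called between heterozygous and wildtype mice (0%) by limma or by the test on each gene alone, although 949 had an unadjusted limma p under 0.05, Pvt1 among them. From heterozygous to homozygous the difference was -0.72 (limma adjusted p = 0.707), in a comparison that called 2 genes (0.0145%). The moderated F-test over the 3 genotypes gave Pvt1 an adjusted p of 0.0709 with limma and did not call it, and 14 genes (0.101%) were called.

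Weaker criteria describe the same values. Pvt1 and H19 met the criterion of the study, an unadjusted p under 0.05 over the 3 genotypes with at least a 1.5-fold change, as 1148 genes did (8.31%). Pvt1 was also among the 688 genes (4.98%) whose 6 values fell in order of allele number without overlap, and H19 was among the 532 (3.85%) whose values rose in that order. Both orders held under median scaling and quantile normalization of the libraries.

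The size of the Pvt1 difference between homozygous and wildtype mice hardly depended on single mice, from -1.43 to -1.59 when each mouse was left out, but its call did. It was lost without wildtype mouse 39 (limma adjusted p = 0.196), without wildtype mouse 41 (0.0719), without heterozygous mouse 37 (0.191) or 40 (0.188) and without homozygous mouse 47 (0.163). It was kept without homozygous mouse 49 (0.0472). Over all 14 alternatives the adjusted p ranged from 0.029 to 0.216 and the gene was called in 7. Luminal markers also moved in this direction, with a summed level over 10 genes of 54600 to 69000 FPKM in wildtype, 40400 to 62000 in heterozygous and 32800 to 36300 FPKM in homozygous mice and a median homozygous difference of -1.15. None of them was called, Pbsn was above 0 in every mouse, Sbp was listed at 0 in mice 39, 40, 47 and 49, and the part of luminal cells in the Pvt1 difference was not tested.

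**Figure D2:**
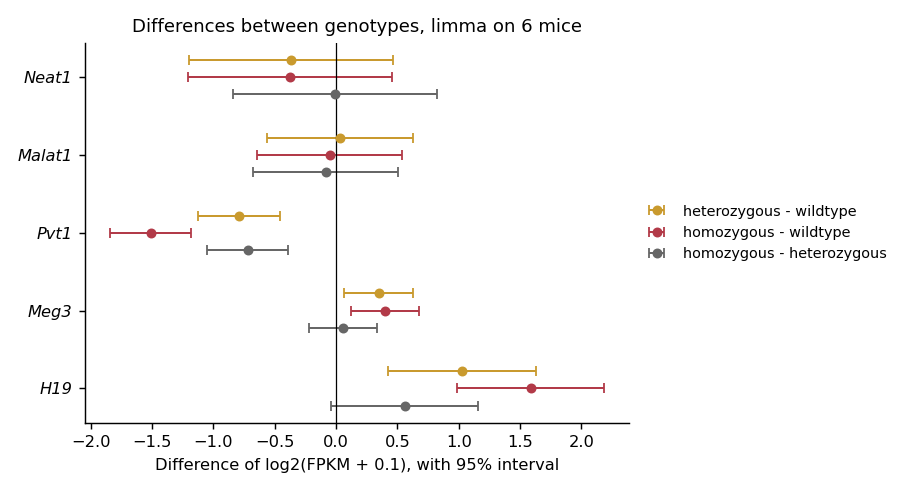
Differences of log2(FPKM + 0.1) between genotypes for the 5 RNAs (points, with 95% intervals of the limma fit as bars), heterozygous minus wildtype, homozygous minus wildtype and homozygous minus heterozygous. No interval is adjusted for the number of genes. The Pvt1 intervals lie below 0 in all 3 comparisons, those of H19 and Meg3 against wildtype lie above 0, and those of Neat1 and Malat1 span 0. After adjustment only Pvt1 in homozygous minus wildtype passed the test.

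Among known p53 targets, Cdkn1a, the cell cycle inhibitor p21, was measured at 109 and 101 FPKM in wildtype, 40.5 and 41.4 in the heterozygotes and 6.70 and 6.17 in the homozygotes. Its homozygous difference of -4.00 (limma adjusted p = 0.00075) was larger than that of Pvt1. Mdm2, the ubiquitin ligase that degrades p53, was measured at 53 and 45.4 FPKM in wildtype, 26.8 and 29.5 in the heterozygotes and 18.8 and 21.1 in the homozygotes, a homozygous difference of -1.30 (limma adjusted p = 0.0399). The changes of Pvt1 and Mdm2 were thus close in size in both mutant genotypes, since the heterozygous difference of Mdm2 was -0.80 and that of Pvt1 was -0.79. A list of 15 reference p53 targets was chosen with earlier results of these data known. The study reports Cdkn1a, Mdm2, Ccng1, Bax, Bbc3, Gdf15 and Tnfrsf10b of this list as lower in these same mice, so the list is no independent reference. Of the 15 genes, 13 were called lower in homozygous mice and none higher, with a median of -2.0 against -0.04 over all tested genes. This count fell to 3 with no filter on low values, to 7 without the intensity trend, to 0 with the test on each gene alone and to 3, 8, 2, 2, 3 and 7 without mice 39, 41, 37, 40, 47 and 49.

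Trp53cor1 (lincRNA-p21), a long noncoding RNA encoded beside Cdkn1a and described as a p53 target, was singled out after its values were seen. It was measured at 1.62 and 1.31 FPKM in wildtype, 0.390 and 0.673 in the heterozygotes and 0.0386 and 0.0854 in the homozygotes. It followed the same order as Pvt1, but its mean over the mice was under 1 FPKM and it was not tested. In the fit with no filter on low values its homozygous difference was -3.28 (limma adjusted p = 0.135), which did not pass.

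**Figure D3:**
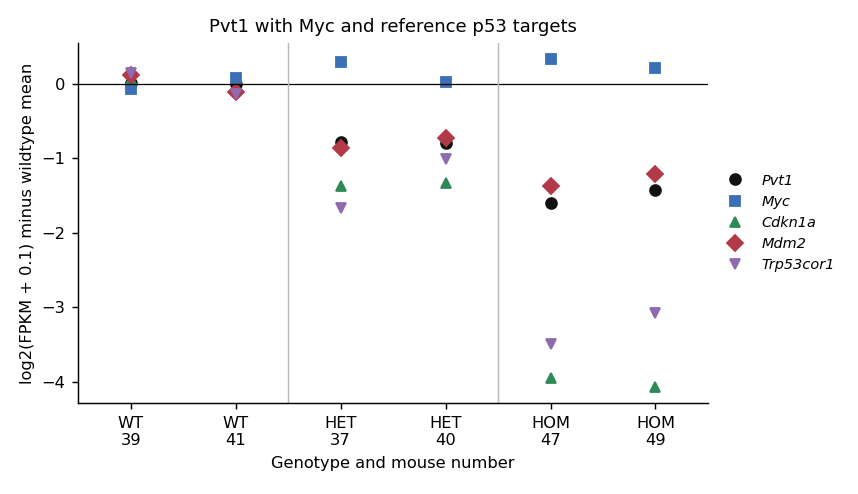
Level of Pvt1, Myc, Cdkn1a, Mdm2 and Trp53cor1 in each mouse as log2(FPKM + 0.1) minus the wildtype mean of that gene, by genotype and mouse number. Pvt1 lies close to Mdm2 in all 4 mutant mice, Cdkn1a and Trp53cor1 lie further below 0, and Myc lies at or slightly above 0 in the mutant mice.

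Myc, the transcription factor gene 47.6 kb from Pvt1 on the same strand, was below both wildtype mice in no mutant mouse. Myc was measured at 19.2 and 21.3 FPKM in wildtype, 24.8 and 20.5 in the heterozygotes and 25.4 and 23.4 in the homozygotes. Its homozygous difference was 0.27 (95% interval -0.08 to 0.62, limma adjusted p = 0.364), an interval that does not reach a fall of the size of Pvt1. Of the 11 genes of the Myc network, 9 were tested and none was called in any of the 3 comparisons (2 had an unadjusted p under 0.05 between homozygous and wildtype), with a median of -0.17. Mlx, a partner of the Mxd proteins, was 24.1 and 26.2 FPKM in wildtype and 20.3 and 18.0 FPKM in homozygous mice (difference -0.39, limma adjusted p = 0.206). Mycl, a Myc paralog, varied most, from 4.87 FPKM in homozygous mouse 47 to 51.8 FPKM in wildtype mouse 41. The repressor genes Mxd4 and Mxd1 had homozygous differences of -0.37 and -0.36 (limma adjusted p = 0.248 and 0.285).

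Apart from Myc, the single tested gene within 250 kb of Pvt1 was Gm27913, a short RNA annotated inside Pvt1 on the same strand, so reads of the shared bases could be assigned to either. It varied from 1.03e-52 FPKM in homozygous mouse 47 to 7.49 FPKM in heterozygous mouse 37. The genes with profiles most like Pvt1 over the 6 mice, by Pearson r of log2(FPKM + 0.1), were Cpt1c (r = 0.997), Trim11 (0.995) and Sat1 (0.994). Cpt1c is a carnitine palmitoyltransferase family member and Sat1 is the rate-limiting enzyme of polyamine catabolism. Cpt1c fell from at least 9.68 FPKM in both wildtype mice to 2.48 and 3.07 in homozygous mice (difference -1.80, limma adjusted p = 0.0291). Sat1 was 221 and 225 FPKM in wildtype and 115 and 114 in homozygous mice (difference -0.96, limma adjusted p = 0.059). Here and below, r describes 6 mice that share the 3 genotypes, so many genes that follow genotype reach such values.

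Neat1 was measured at 1010 and 567 FPKM in wildtype, 569 and 603 in the heterozygotes and 689 and 493 in the homozygotes. Wildtype mouse 39 was high and the other 5 mice overlapped irrespective of genotype. The means were 789 ± 314, 586 ± 24.2 and 591 ± 138 FPKM (SD, n = 2 each). Neat1 was the 3rd most abundant of the 668 tested long noncoding RNA genes.

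The difference of Neat1 between homozygous and wildtype mice was -0.38 (SE 0.34, 95% interval -1.21 to 0.45, limma adjusted p = 0.584). The heterozygous difference was -0.37 (limma adjusted p = 0.918). Both rested on mouse 39, since without it they were 0.041 and 0.0482. Mouse 39 also differed in seminal vesicle markers, whose summed level over 7 genes was 3490 FPKM in it and 35200 to 59500 FPKM in the others (Svs2 is listed at 0 in mice 47 and 49, Svs4 and Svs5 in mouse 47, which may be failed estimates), and the part of this in the Neat1 level was not tested. The interval includes both a fall of the size of Pvt1 in heterozygous mice and no change, so a genotype difference was not detectable with this spread.

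Malat1 was measured at 753 and 526 FPKM in wildtype, 659 and 628 in the heterozygotes and 572 and 643 in the homozygotes. All mutant mice lay between the 2 wildtype mice. The means were 639 ± 160, 644 ± 22.0 and 608 ± 49.7 FPKM (SD, n = 2 each), and the homozygous difference was -0.05 (95% interval -0.65 to 0.54, limma adjusted p = 0.925). The sign of this small difference turned to 0.04 under quantile normalization.

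A ratio within a mouse does not depend on the scaling of that library. Neat1 relative to Malat1 was 1.34 and 1.08 in wildtype, 0.863 and 0.960 in the heterozygotes and 1.2 and 0.767 in the homozygotes. The homozygous values lay on both sides of the heterozygous ones, and the genotypes of the mutant mice overlapped (exact permutation test over 15 pairings of the mice, p = 0.533, where the smallest possible p of 0.0667 leaves no room to pass 0.05). Short RNAs annotated inside Neat1 on the same strand were listed with high values in single mice. Gm27533 was 16.8 FPKM in mouse 39 and at most 0.000773 FPKM in the others. Gm28006 was 17.7 and 19.7 FPKM in mice 41 and 37 and near 0 in the other 4. Neat1 itself was at 493 FPKM or more in every mouse, and the effect on its level of reads assigned to these short RNAs was not computed.

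The proteins that work with these nuclear RNAs were likewise not called. All 10 paraspeckle protein genes were tested and none passed in any comparison (4 had an unadjusted p under 0.05 between homozygous and wildtype), with a median homozygous difference of -0.16. Sfpq and Nono, core paraspeckle proteins, were 35.5 to 43.3 FPKM and 71.3 to 77.7 FPKM over the 6 mice. Pspc1, another core protein, was 5.51 and 5.97 FPKM in wildtype, 4.53 and 4.15 in the heterozygotes and 4.21 and 4.36 in the homozygotes (homozygous difference -0.41, limma adjusted p = 0.23). Rbm14, which is needed for paraspeckle formation, and Smarca4, a chromatin remodeller, had differences of -0.41 and -0.38 (limma adjusted p = 0.228 and 0.204), and the RNA binding protein Hnrnph3 of 0.38 (limma adjusted p = 0.273).

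Of the 11 genes for nuclear speckle and Malat1 partner proteins none was called or had an unadjusted p under 0.05, and the median homozygous difference was 0.00. Son, a speckle scaffold, was 80.6 to 92.6 FPKM in wildtype and 93.0 to 95.3 FPKM in homozygous mice. The splicing factor Srsf5 was 310 to 339 FPKM in wildtype and 276 to 292 FPKM in homozygous mice. The splicing factors Sf3b1 and U2af2 had homozygous differences of 0.17 and -0.18 (limma adjusted p = 0.523 and 0.492). Within 250 kb of Neat1 there were 30 tested genes, many shared with the window of Malat1, and none was called between homozygous and wildtype. The lowest adjusted p among them was 0.119, for Ehbp1l1.

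The profiles most like Neat1 were those of Spin2e (r = 0.987), C2cd4b (0.980) and Spin2f (0.977), all of which were highest in wildtype mouse 39. Spin2e and Spin2f are related genes and may share reads. Those most like Malat1 were Bex1 (r = 0.989), Scnn1b (0.980), an epithelial sodium channel subunit, and Nmd3 (0.977), a ribosome export factor. They too were highest in mouse 39 and lowest in mouse 41, and thus followed single mice and not genotype.

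H19 was measured at 7.04 and 10.4 FPKM in wildtype, 14.9 and 20.7 in the heterozygotes and 27.4 and 24.6 in the homozygotes. The genotypes did not overlap and the level rose with each mutant allele. The means were 8.73 ± 2.38, 17.8 ± 4.11 and 26.0 ± 1.99 FPKM (SD, n = 2 each). The homozygous level was 3.01-fold that of wildtype, a difference of 1.59 (SE 0.24, 95% interval 0.99 to 2.19), but the limma adjusted p of 0.0853 did not pass. Under the 14 alternatives it ranged from 0.0714 to 0.334 and never passed.

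The heterozygous level of H19 was 2.04-fold that of wildtype (difference 1.03, limma adjusted p = 0.396). This was 64.7% of the homozygous change. The step from heterozygous to homozygous was 0.56 (95% interval -0.04 to 1.16, limma adjusted p = 0.707). For a gene to lie above wildtype without overlap was common, since 2942 tested genes (21.3%) did so in homozygous mice and 2648 (19.2%) in heterozygous mice.

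The summed skeletal muscle markers were also above wildtype in all 4 mutant mice. Of the 12 marker genes 11 were tested, and 10 had an unadjusted p under 0.05 between homozygous and wildtype mice. So did 2483 of all 13818 tested genes. Among the 11 marker genes none passed after adjustment, and their median difference was 1.38. None of the 12 was at 0 in any mouse. The median over the 11 tested was 1.23 between heterozygous and wildtype mice and 0.15 between homozygous and heterozygous mice. The latter step was 0.56 for H19. Acta1, the skeletal muscle actin, was 460 and 724 FPKM in wildtype, 1300 and 1310 in the heterozygotes and 1530 and 1340 in the homozygotes. Atp2a1, the calcium pump of fast fibres, was 155 and 213, 426 and 425, and 485 and 459 FPKM (homozygous difference 1.38, limma adjusted p = 0.0741). Myod1, a myogenic transcription factor, was 0.526 and 0.694, 1.40 and 1.29, and 1.79 and 2.07 FPKM. H19 and these genes were lowest in mouse 39, and the part of muscle in the H19 difference was not tested.

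**Figure D4:**
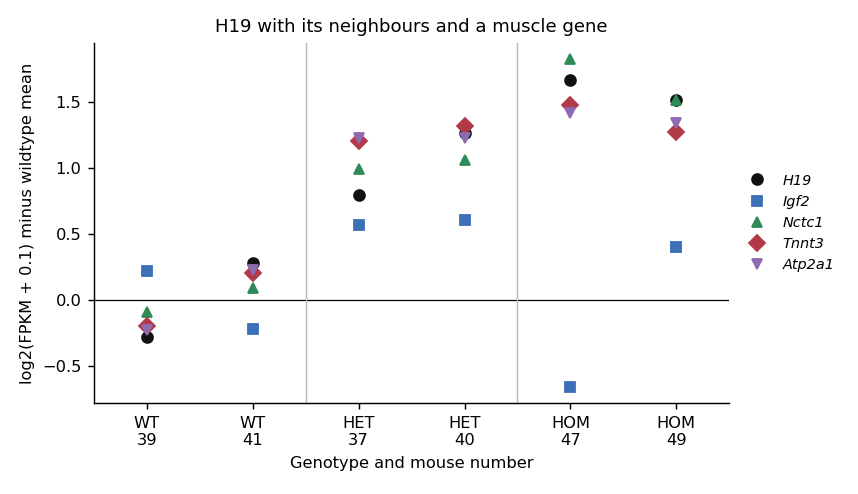
Level of H19, its neighbours Igf2, Nctc1 and Tnnt3, and the skeletal muscle gene Atp2a1 in each mouse as log2(FPKM + 0.1) minus the wildtype mean of that gene, by genotype and mouse number. H19, Nctc1, Tnnt3 and Atp2a1 lie above 0 in all 4 mutant mice, and Igf2 lies below 0 in homozygous mouse 47.

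Igf2, the paternally expressed growth factor gene 72.6 kb from H19, was not higher in both homozygous mice. It was measured at 4.86 and 3.56 FPKM in wildtype, 6.23 and 6.37 in the heterozygotes and 2.6 and 5.53 in the homozygotes (homozygous difference -0.13, 95% interval -1.02 to 0.77, limma adjusted p = 0.872). The ratio of H19 to Igf2 was 1.44 and 2.87 in wildtype, 2.37 and 3.21 in the heterozygotes and 10.2 and 4.38 in the homozygotes. Both homozygous ratios were above the others, and mouse 47, in which Igf2 was lowest, gave the highest. The exact permutation test gave p = 0.133, and with 15 pairings, whose smallest p is 0.0667, it could not have passed 0.05 whatever the values.

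Of the 10 tested genes within 250 kb of H19, Nctc1 was called between homozygous and wildtype mice. Nctc1 is a noncoding RNA 16.9 kb from H19, transcribed near enhancers that serve the Igf2 and H19 locus. It was measured at 1.45 and 1.65 FPKM in wildtype, 3.18 and 3.33 in the heterozygotes and 5.73 and 4.60 in the homozygotes (difference 1.67, limma adjusted p = 0.0477). With all 6 mice kept, Nctc1 was not called with a pseudocount of 1 (limma adjusted p = 0.0553) or no filter on low values (0.12). Nor was Nctc1 called under quantile normalization (0.0595), without the intensity trend (0.0573) or by the test on each gene alone (0.253). Its call was lost when any 1 mouse was left out (limma adjusted p = 0.0589 to 0.26). Tnnt3 and Tnni2, the fast skeletal troponin genes in the same window, had differences of 1.38 and 1.34 (limma adjusted p = 0.091 and 0.0853). Ctsd, a lysosomal protease gene, and Ifitm10, at the far side of the window, were lower, with differences of -0.70 and -0.81 (limma adjusted p = 0.221 and 0.22). The members of the window thus did not share a direction. The genes with profiles most like H19 were Mfn1 (r = 0.998), a mitochondrial fusion gene, Schip1 (0.997) and Dgkg (0.997), a diacylglycerol kinase, none of which was called.

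Meg3 was measured at 29.7 and 27.1 FPKM in wildtype, 35.1 and 37.1 in the heterozygotes and 38.5 and 36.5 in the homozygotes. Every mutant mouse was above both wildtype mice, and the heterozygous and homozygous mice overlapped. Of all tested genes, 21.3% lay above wildtype without overlap in homozygous mice and 19.2% in heterozygous mice. The share that did so in both genotypes was not counted. The means were 28.4 ± 1.80, 36.1 ± 1.41 and 37.5 ± 1.45 FPKM (SD, n = 2 each). The homozygous difference was 0.40 (95% interval 0.12 to 0.68, limma adjusted p = 0.188) and the heterozygous difference was 0.35 (limma adjusted p = 0.599), of which neither passed. The heterozygous difference of Meg3 was 86.4% of the homozygous one, and the step between the mutant genotypes had an interval of -0.22 to 0.33. Skeletal muscle markers, with the summed levels given above, and endothelial markers were likewise above wildtype in all 4 mutant mice. The endothelial sum over 5 genes was 31.9 and 33.9 FPKM in wildtype, 46.5 and 53.2 in the heterozygotes and 43.0 and 51.9 in the homozygotes, and the part of either cell type in the Meg3 difference was not tested.

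Rian and Mirg, the noncoding RNAs downstream of Meg3 in the same imprinted cluster, were the tested genes within 250 kb of it. Rian was 11.7 and 8.98 FPKM in wildtype, 8.07 and 12.3 in the heterozygotes and 17.1 and 14.3 in the homozygotes (homozygous difference 0.61, limma adjusted p = 0.278). It was highest in the homozygous mice, and the heterozygous mice lay on both sides of the wildtype mice. Mirg was 0.560 to 1.53 FPKM over the mice, with genotypes that overlapped. The ratio of Meg3 to Rian ran from 2.25 to 4.31 in mice whose genotypes overlapped (exact permutation test, p = 0.2, with the same smallest p of 0.0667). Dlk1, the paternally expressed gene of the cluster, was 0.128 to 1.18 FPKM and was not tested. Genes most like Meg3 were Ablim3 (r = 0.998), Nnmt (0.990), nicotinamide N-methyltransferase, and Hoxc10 (0.983), a homeobox gene, and none was called.

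Of the 30 other imprinted genes listed, 20 were tested and none was called in any comparison (4 had an unadjusted p under 0.05 between homozygous and wildtype), and the median homozygous difference was 0.22. Their directions were mixed. Airn, the noncoding RNA antisense to Igf2r, was 17.7 and 17.3 FPKM in wildtype, 14.8 and 13.0 in the heterozygotes and 11.5 and 12.1 in the homozygotes, in order of allele number (homozygous difference -0.56, limma adjusted p = 0.139). Slc38a4, an amino acid transporter gene, was 0.443 and 0.773 FPKM in wildtype and 1.81 and 2.05 in homozygous mice (difference 1.56, limma adjusted p = 0.155). Sgce, a sarcoglycan gene, and Cdkn1c, a cell cycle inhibitor gene, had differences of 0.50 and 0.50 (limma adjusted p = 0.173 and 0.279).

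**Figure D5:**
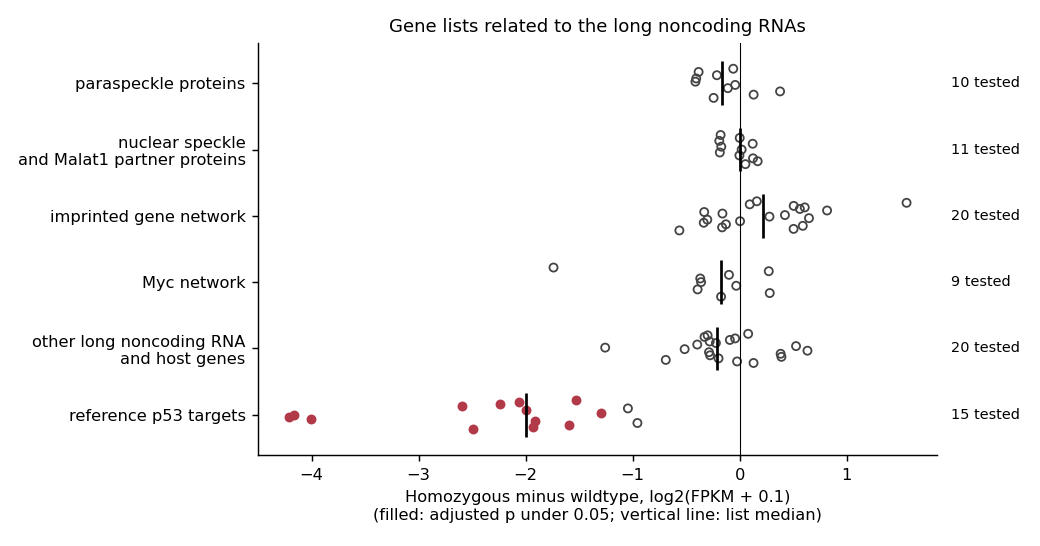
Homozygous minus wildtype difference of log2(FPKM + 0.1) for each tested gene of 6 lists (points, filled where the limma adjusted p was under 0.05), with the list median as a vertical line. In the reference p53 targets 13 of 15 points are filled and the median is -2.0, whereas no point is filled in the other 5 lists. The lists were chosen with earlier results of these data known.

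Among 28 other long noncoding RNA and host genes found in the files, 20 were tested and none was called in any comparison (3 had an unadjusted p under 0.05 between homozygous and wildtype). Their median homozygous difference was -0.21. Mir22hg, the host of miR-22, was 19.9 and 20.7 FPKM in wildtype, 13.3 and 14.1 in the heterozygotes and 14.9 and 13.4 in the homozygotes (homozygous difference -0.51, limma adjusted p = 0.148). Rmrp, the RNA of RNase MRP, and Epb41l4aos had differences of -1.26 and -0.69 (limma adjusted p = 0.219 and 0.289), and Dancr of 0.13 (0.735). Gas5, a snoRNA host, was 217 to 218 FPKM in wildtype and 177 to 182 in homozygous mice (difference -0.28, limma adjusted p = 0.347).

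Over all 668 tested long noncoding RNA genes 7 were called between homozygous and wildtype mice, 5 lower and 2 higher, with a median difference of -0.09. This was 1.05% of them, against 0.384% of all tested genes, a difference that was not tested. With no filter on low values none of the 7 calls was left, and leaving out each mouse gave 1 to 4 called genes. The lower ones were Pvt1, 2900052L18Rik, A930001C03Rik, Gm37795 and Gm43549, and the higher ones were Nctc1 and BC006965. Of the lower ones Pvt1 had the smallest difference, and Gm43549 the largest, from 21.4 and 26.1 FPKM in wildtype to 0.276 and 0.170 in homozygous mice. By the size of the homozygous difference in either direction H19 ranked 47 and Pvt1 ranked 51 of the 668.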

How the data were processed

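Prostate RNA of 6 irradiated mice, 2 for each Trp53 genotype, was made into strand-specific poly(A)-selected libraries (TruSeq Stranded mRNA) and sequenced in pairs. Per the labels and the methods of the study, the authors aligned the reads to GRCm38/mm10 with HISAT and deposited gene-level FPKM values made with Cufflinks and Cuffnorm. Versions and the annotation are not given in the sources used here. FPKM values are not counts, so read depth per gene is unknown and no counting interval is given.

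From these values, a linear model of log2(FPKM + 0.1) was computed in R 4.3.3 with the package limma 3.58.1, whose variance prior had an intensity trend, over the 13818 genes with a mean of at least 1 FPKM, all 6 mice in 1 fit. A moderated F-test and 3 contrasts were adjusted by the Benjamini-Hochberg method over all tested genes, with a threshold of 0.05. Because 0.1 was added before the logarithm, differences of low genes are understated. The study used ANOVA, which limma replaced because 2 mice a genotype leave 3 residual degrees of freedom. Ratios were tested by an exact permutation test. Intervals are 95% and two-sided, as are all tests.

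Genotypes were taken from the labels. The members, gene lists and tests were chosen with earlier results of these data known. Genes named are the members, Cdkn1a and Mdm2, the 3 profiles most like each member (leaving out predicted and clone names) and some tested genes within 250 kb. The 4 lowest F-test p values are named in each gene list other than the reference p53 targets. In that list the 4 were Cdkn1a, Sesn2, Aen and Phlda3, and values are given for Cdkn1a and Mdm2 only. Trp53cor1, Gas5, Dlk1, Sfpq, Nono, Acta1, Myod1, Pbsn and the called long noncoding RNAs were added after their values were seen. Coordinates and transcripts are from GENCODE on GRCm38, in which 47219 of the 47719 identifiers were found. Alternatives were the pseudocount, the low-value filter, 2 rescalings, the variance prior, no moderation, and leaving out each mouse.

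Marker lists of 11 cell types were examined. Of all their genes 1 was called between homozygous and wildtype mice, Svs2, which is listed at 0 in both homozygous mice. These zeros, and those of Svs4, Svs5 and Sbp, may be failed estimates, so the call of Svs2 is not read as a change. Besides skeletal muscle, median homozygous differences were -1.15 for luminal and 0.24 for basal epithelium, 0.34 for smooth muscle, 0.19 for fibroblasts, 0.54 for endothelium, 0.65 for adipocytes, -0.07 for macrophages, 0.49 for lymphocytes (1 gene tested) and 0.45 for neurons and glia. No median is used for seminal vesicle, whose genes went both ways: Svs2, Svs4 and Svs5 were at -14.04, -6.97 and -7.09 through their zeros, and Svs1, Svs3a, Svs6 and Pate4 at 3.53 to 3.78, with mouse 47 far above mouse 49 (Svs1 9140 against 56.2 FPKM, Svs6 26100 against 178 FPKM).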

Additional observations from a re-analysis of the deposited data

How the results depend on the processing

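With 2 mice a genotype, calls were fragile while directions of the large differences held. The directions of the Pvt1, H19 and Meg3 differences were the same in all 3 comparisons under every alternative run. Some alternatives could not turn a direction. The low-value filters, the prior without intensity trend and the test on each gene alone leave each difference unchanged by construction. So does leaving out a mouse of the genotype outside a comparison. Of 120 member differences recomputed under settings other than leaving out a mouse, 113 kept direction and side of the threshold. Pvt1 between homozygous and wildtype mice was no longer called with no filter on low values (adjusted p = 0.0948) or with the test on each gene alone (0.216), and after leaving out any mouse other than homozygous mouse 49. The near-zero differences turned sign: Neat1 homozygous against heterozygous became 0.0113 under median scaling and 0.1705 under quantile normalization, and Malat1 under quantile normalization became 0.0373, -0.0651 and 0.1024 in the homozygous against wildtype, heterozygous against wildtype and homozygous against heterozygous comparisons. Leaving out a mouse gave -0.79 to 0.041, -0.79 to 0.0482 and -0.25 to 0.23 for Neat1 and -0.31 to 0.21, -0.23 to 0.29 and -0.17 to -0.0019 for Malat1 in the homozygous against wildtype, heterozygous against wildtype and homozygous against heterozygous comparisons, and -0.65 to 0.0012 for the log2 ratio of Neat1 to Malat1, 1.11 to 2.32 for H19 to Igf2 and -0.33 to -0.09 for Meg3 to Rian between homozygous and wildtype mice.

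Genes called over the 3 genotypes, 14 as reported, numbered 3 with no filter on low values, 4 under quantile normalization, 9 with a prior variance without intensity trend and 0 with the test on each gene alone. Genes called between homozygous and wildtype mice, 53 as reported, numbered 4 with no filter, 23 without the trend and 0 by the test on each gene alone. Between homozygous and heterozygous mice 2 genes became 1 with a pseudocount of 0.01, 1 with a mean of at least 5 FPKM and 0 by the test on each gene alone. The criterion of the study with the moderated F-test, 1148 genes as reported, gave 697 with a mean of at least 5 FPKM and 593 by the test on each gene alone. Leaving out each mouse gave 0 to 9 genes over the 3 genotypes, 4 to 96 between homozygous and wildtype, 0 to 1 between heterozygous and wildtype, 0 to 40 between homozygous and heterozygous, 795 to 1858 by the criterion of the study and 1963 to 2980 ordered by allele number, against 1220. The recounts of the p53 target list, the long noncoding RNA genes and Nctc1 were chosen after seeing the data. The causes were not tested, other than fewer mice and other sets of genes by construction. No paired analysis was possible because the genotypes share no replicate number.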
